A study of Drosophila melanogaster with 2 samples.

Results

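The 10 genes described here encode enzymes of glycolysis in Drosophila melanogaster, from glucose-6-phosphate isomerase (Pgi) to pyruvate kinase (Pyk), and they are 10 of 18277 annotated genes. They were taken by name, not by a measured value: Pgi, Pfk, Ald1, Tpi, Gapdh1, Gapdh2, Pgk, Pglym78, Eno and Pyk. For each, the summits of the authors' ChIP-seq peaks were placed against the transcription start sites (TSS) of the gene, and then within the gene body extended by 2 kb on either side. Summits were next read in the longer candidate lists, where each region has a rank by its signal value, rank 1 being the highest.

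Glycolysis breaks glucose down to pyruvate, first spending ATP on hexose phosphates and then regaining ATP and NADH from triose phosphates. In fly embryos the pathway's genes are known to be switched on together partway through development, with the nuclear receptor ERR as a principal activator, and the same enzymes feed lactate and glycerol-3-phosphate production in growing larvae. BuGZ is a zinc finger protein that binds the checkpoint protein Bub3 and is known from dividing cells, where it acts on spindle microtubules and kinetochores.

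The samples were whole embryos, male and female pooled, collected 0 to 16 h after laying from a transgenic line that stably carries BuGZ (CG17912) fused at its C terminus to green fluorescent protein. All samples carried this transgene. There was 1 group of 2 biological replicates and no second genotype, treatment or age, so no comparison between conditions and no test over samples was possible. A collection of whole embryos from 0 to 16 h mixes stages and cell types, so a peak cannot be assigned to a stage or a tissue. Strong signal in few cells and weaker signal in many cannot be told apart. The labels do not say what promoter drives the fusion. The sample descriptions call the libraries input controls, whereas the antibody label names CG17912 and the peak lists were called against a separate control. They were read here as immunoprecipitations, and every result below rests on that reading.

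The authors' reproducible list held 2413 peaks, identical to the 2413 highest regions of the pooled candidate list. Membership thus matched a cut on the pooled signal value, and a peak of this list need not rank high in both replicates. The promoter region of Gpo1, for example, is in the list but ranked 10448 in replicate 1. The pooled list and each replicate's list held 30000 regions each, so their lower ends are background by construction, and a candidate is not a peak. Signal values in the reproducible list ran from 101.3 to 1538 with a median of 134.3. They are the authors' own, on a scale that is not stated, and were compared only within a list. The read depth is unknown.

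BuGZ peaks lay near the start sites of 3 of the 10 genes, Gapdh2, Eno and Pgk, all from the second, energy-yielding stage of the pathway. Across all annotated genes, 9.43% had a reproducible summit within 250 bp of a TSS, against 11.6% of protein-coding genes. All 10 glycolysis genes have at least 2 annotated TSS positions, and 19.4% of protein-coding genes with at least 2 had such a summit. The count depends on the window, since all 3 summits lay 166 to 242 bp upstream of a TSS. With a window of 100 bp, or with the requirement that the peak interval overlap a TSS, the count was 0 of 10. In the gene body plus 2 kb, 4 of 10 genes had a reproducible summit, with Pyk joining the other 3, where 22.0% of all genes did. None of the 4 genes of hexose and triose phosphate conversion, Pgi, Pfk, Ald1 and Tpi, had a reproducible peak in either window. Gapdh1 and Pglym78 of the second stage had none either. With so few genes and the shares above, no difference between the stages can be read from these counts, and none was tested.

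Each replicate gave a similar count when its own 2413 highest regions were used. Replicate 1 placed 4 of the 10 genes within 250 bp (Gapdh2, Eno, Pgk and Pglym78), where 9.08% of all genes had such a region. Replicate 2 placed 3 (Gapdh2, Eno and Pgk), where the share of all genes was 9.29%. Among all pooled candidates 7 of 10 genes had a summit within 250 bp, against 40.7% of all genes, and 10 of 10 had one in the gene body plus 2 kb, against 73.9%. Replicate 1's candidates reached 8 of 10 genes within 250 bp, where the share of all genes was 36.3%, and replicate 2's reached 9 of 10, where it was 40.1%.

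**Figure D1:**
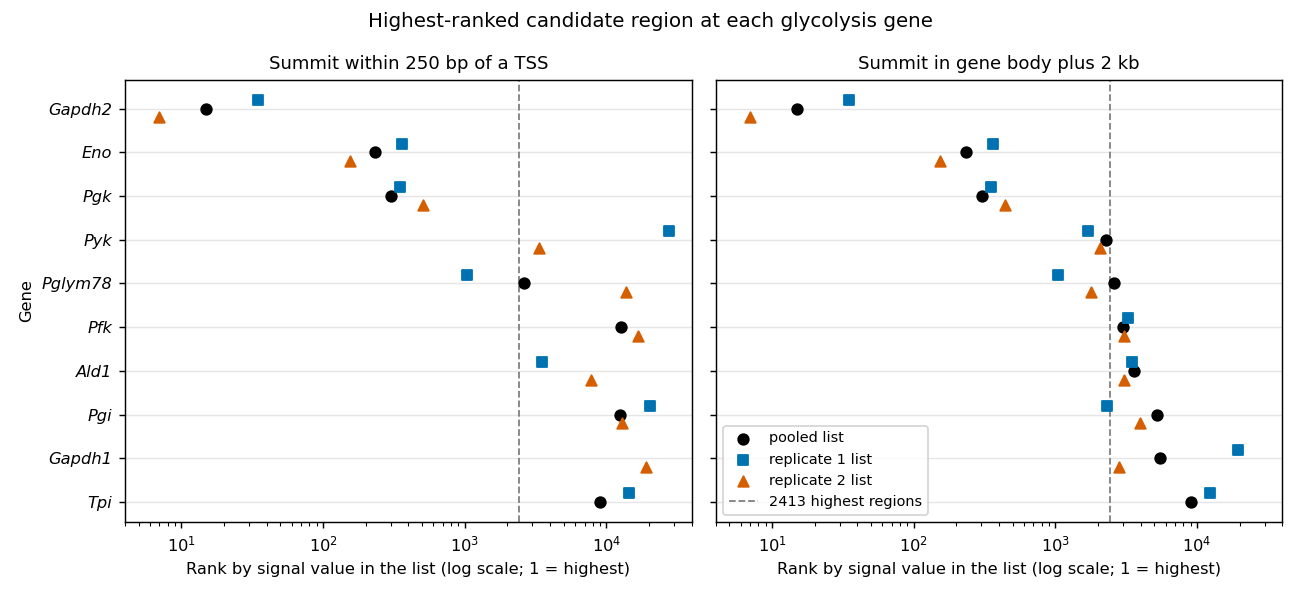
Rank by signal value (log scale, 1 is the highest) of the highest-ranked candidate at each glycolysis gene, within 250 bp of a TSS on the left and within the gene body plus 2 kb on the right, in the pooled list and in each replicate; a gene without a marker had no candidate in that list, and the dashed line marks rank 2413. Gapdh2, Eno and Pgk lie left of the line in all 3 lists, and Gapdh2 at ranks 7 to 35 stands far to the left of the others.

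Gapdh2 encodes glyceraldehyde-3-phosphate dehydrogenase, which oxidises the triose phosphate and yields NADH. The gene lies at chrX:15868145-15869661 (dm6, plus strand) with 2 TSS positions. Its promoter peak spanned chrX:15867837-15868105, with the summit at 15867979 in intergenic sequence 166 bp upstream of the first TSS. The peak had a signal value of 711.2 and was number 15 of the 2413 reproducible peaks, and number 9 of the 7530 pooled candidates that lay within 250 bp of any TSS. It ranked 35 in replicate 1, with the summit 145 bp upstream of the TSS, and 7 in replicate 2, with the same summit position as in the pooled list. Both replicates thus placed the region within the highest 0.117% of their candidates. The peak next above it by signal lay 104 bp upstream of CG18549, with a signal value of 746.2, and the one next below lay 32 bp upstream of Ugalt, which encodes a Golgi sugar transporter, with 682.8.

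The sequence under this summit is shown because it carries the highest-ranked peak of the pathway. It runs 5′ to 3′ along the gene from chrX:15867879-15868079 (Release 6 of the genome from RefSeq), 100 bases on either side of the summit, and overlaps no annotated exon. Capitals mark matches on either strand to 9 promoter and factor motifs and to 10 words of 8 bases, all named further on.
Gapdh2: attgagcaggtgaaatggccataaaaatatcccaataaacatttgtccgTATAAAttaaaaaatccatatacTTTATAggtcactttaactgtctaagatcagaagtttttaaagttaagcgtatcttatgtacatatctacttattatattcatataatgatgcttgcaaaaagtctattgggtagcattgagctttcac
The only matches were a pair of TATAAA words, starting 51 and 28 bases before the summit. The window's GC content was 29.4%, and 6.61% of the other reproducible peaks had a GC content as low or lower, against a median of 40.3%. A second reproducible peak near Gapdh2 lay 1312 bp past its 3′ end, in an intron of CG16952, with its summit at 15870973, a signal value of 189.1 and rank 532. It ranked 1662 in replicate 1 and 234 in replicate 2.

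Eno encodes enolase, which forms phosphoenolpyruvate. The gene lies at chr2L:1724768-1729636 (minus strand) and has 3 TSS positions, each used by 2 of its 6 annotated transcripts. The peak, chr2L:1727796-1727937, had its summit at 1727912 in an intron, 195 bp upstream of the innermost TSS at 1727717. Its signal value was 266.0, at rank 232. It ranked 363 in replicate 1, with the summit 148 bp upstream of that TSS, and 154 in replicate 2, with the summit 217 bp upstream. At the outermost TSS of Eno, a pooled candidate at rank 3462 lay 188 bp upstream and 63 bp from the start of CG31937, outside the reproducible list. A second reproducible peak lay 1538 bp past the 3′ end of Eno in an intron of Rim2, at rank 2297.

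Pgk encodes phosphoglycerate kinase, which makes the first ATP of the pathway. It lies at chr2L:2746880-2753068 (minus strand) and has 5 TSS positions, each used by 1 of 5 annotated transcripts. The peak, chr2L:2748675-2748797, had its summit at 2748729, 242 bp upstream of the innermost TSS and within an annotated 5′ UTR of the gene. Its signal value was 240.3, at rank 302. It ranked 351 in replicate 1 and 511 in replicate 2, with summits within 5 bp of the pooled one. The word CAACACTG began 4 bases after the summit, and the 201-base window also held ATTTAAAA at 2 places, AATTTAAA overlapping 1 of them, and GAGAG. This word stood in 4.9% of the other reproducible peaks and in 0.658% of 14890 low-ranked candidates. Just outside the reproducible list, at rank 2519 with a signal value of 99.75, a pooled candidate lay 241 bp upstream of another internal TSS of Pgk. A further reproducible peak upstream of the gene lay in an intron of Bacc, with the summit at 2754606, a signal value of 176.9 and rank 609. It ranked 1007 in replicate 1 and 444 in replicate 2, where it stood above the peak inside Pgk.

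Pyk, spelled PyK in the annotation, encodes pyruvate kinase, which makes pyruvate and the last ATP of the pathway. It lies at chr3R:22367536-22372746 (plus strand) with 2 TSS positions. Its peak, chr3R:22368470-22368805, was in the first intron, 644 bp upstream of the second TSS, and so outside the promoter window. The signal value was 103.7 at rank 2283, close to the end of the reproducible list. It ranked 2062 in replicate 2. The strongest region within 200 bp in replicate 1 ranked 1701, with its summit 146 bp away from the pooled one at 22368638. Another region of replicate 1, with its summit nearer to the pooled one at 22368691, ranked only 21156.

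The sequences at the Eno and Pyk summits are shown for comparison with Gapdh2, since both lie inside their genes. That of Eno comes from chr2L:1727881-1728012 on the minus strand, limited to the intron, and that of Pyk from chr3R:22368538-22368738 on the plus strand; both run 5′ to 3′ along the gene, with matches in capitals as for Gapdh2.
Eno: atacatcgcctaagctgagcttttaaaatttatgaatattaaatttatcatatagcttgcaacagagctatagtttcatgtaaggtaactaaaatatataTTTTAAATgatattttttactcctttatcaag
Pyk: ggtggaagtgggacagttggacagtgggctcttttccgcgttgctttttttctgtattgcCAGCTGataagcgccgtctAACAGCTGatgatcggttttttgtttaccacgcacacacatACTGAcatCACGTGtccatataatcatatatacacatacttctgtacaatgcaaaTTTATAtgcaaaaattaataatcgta
The Eno stretch held ATTTAAAA, read on the other strand, starting at the summit itself. The Pyk window held the E-box CACGTG once. It held the other E-box, CAGCTG, at 2 places, 1 of them within the word AACAGCTG, and it had single matches to TCAGT and to the TATA box. ACGTG matched at 2 overlapping places, both inside CACGTG. GC content in the 201-base windows was 31.3% for Eno and 39.8% for Pgk and Pyk. The medians were 40.3% for the other reproducible peaks and 45.5% for low-ranked candidates. Of the other reproducible peaks, 11.5% had a GC content as low as that of Eno or lower. For Pgk and Pyk the share was 47.7%, so their GC content was ordinary among these peaks.

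**Figure D2:**
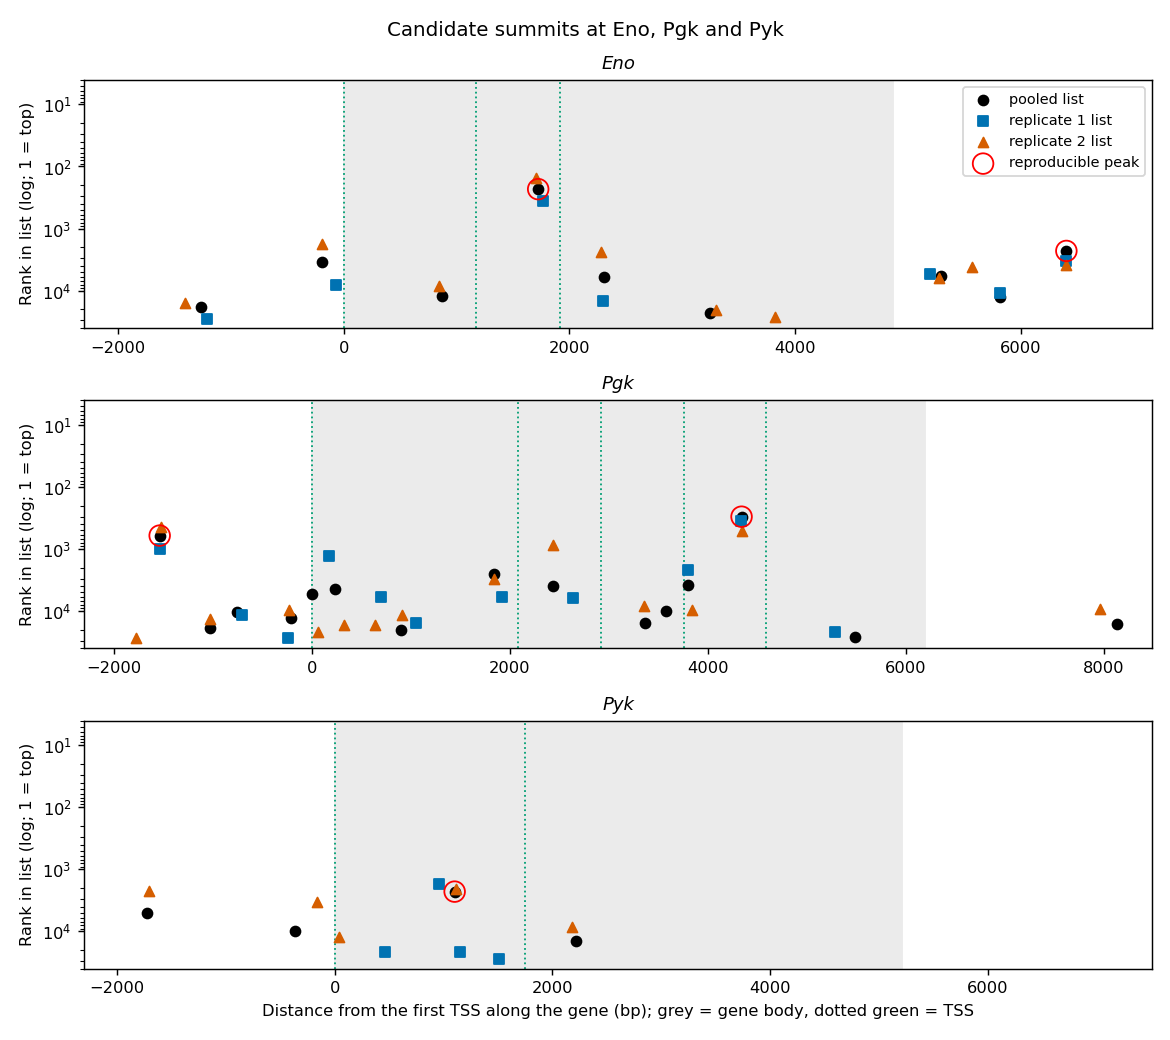
Candidate summits at Eno, Pgk and Pyk by distance from the first TSS along the gene (bp), against rank in each list (log scale, 1 at the top); grey spans the gene body, dotted lines are TSS positions and red circles mark reproducible peaks. The strongest pooled summits of Eno and Pgk lie inside the gene, upstream of its innermost TSS (195 and 242 bp), and that of Pyk lies in the first intron; in replicate 2 the summit upstream of Pgk ranks higher (444) than the one inside it (511).

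Pglym78 encodes phosphoglycerate mutase, which comes between Pgk and Eno in the pathway. The gene lies at chr3R:29148248-29149901 (plus strand) with 3 TSS positions. Its pooled candidate, 30 bp downstream of the first TSS and also within 250 bp of a CG11882 start, ranked 2609 with a signal value of 98.16, below the lowest reproducible value of 101.3. The replicates differed widely here, with a rank of 1038 in replicate 1 and 13675 in replicate 2. A candidate of similar strength, at rank 2696, lay at the start of the neighbouring gene eIF2D.

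Gapdh1, the paralog of Gapdh2, had no reproducible peak in either window. The gene lies at chr2R:7791901-7793380 (minus strand) and has 2 TSS positions. Its highest pooled candidate ranked 5477 with a signal value of 66.22. That summit lay past the 3′ end of the gene, 1737 bp from the nearest Gapdh1 TSS, and nearer to the start of CG12824. The highest region of replicate 1 ranked 19354, on the opposite side of the gene, and that of replicate 2 ranked 2802. No pooled or replicate 1 candidate lay within 250 bp of a Gapdh1 TSS, and the 1 candidate of replicate 2 there ranked 19079. Set side by side, the strongest region of Gapdh2 was within the highest 0.05% of pooled candidates and that of Gapdh1 within the highest 18.3%. In replicate 1 the values were 0.117% and 64.5%, and in replicate 2 they were 0.0233% and 9.34%, so Gapdh2 ranked above Gapdh1 in all 3 lists.

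Reads from near-identical copies can be shared between genes, so the pair was compared base by base. The coding sequences are 996 bases each and identical at 884 aligned positions, or 88.8%, and their longest identical run is 38 bases. The 201-base window at the Gapdh2 summit shared no run longer than 12 bases with the Gapdh1 locus and its 2 kb flanks. Only peak lists were used and the aligner is not known, so whether reads were shared between the genes was not tested.

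**Figure D3:**
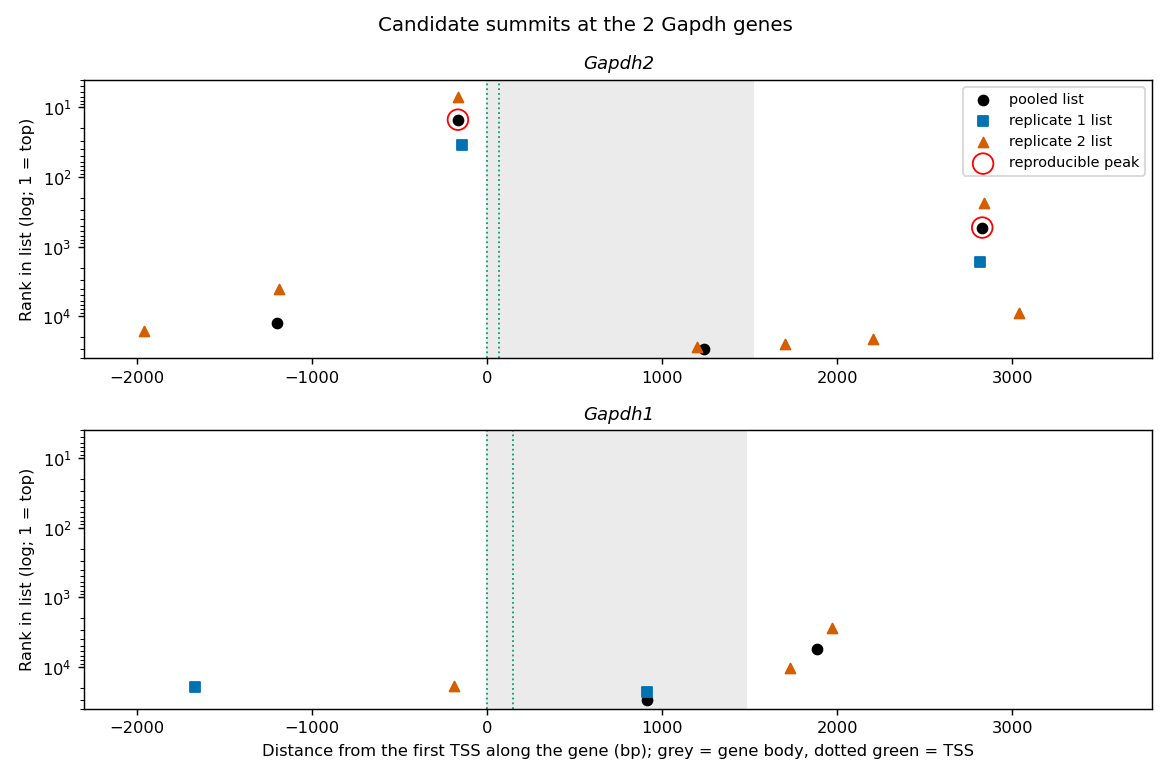
Candidate summits at Gapdh2 (top) and Gapdh1 (bottom) by distance from the first TSS along each gene (bp), against rank in each list (log scale, 1 at the top); grey spans the gene body, dotted lines are TSS positions and red circles mark reproducible peaks. All 3 lists place a region at ranks 7 to 35 just upstream of Gapdh2, while Gapdh1 has none ranked above 2802.

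Pgi converts glucose-6-phosphate to fructose-6-phosphate, and its own promoter candidate (chr2R:8910900-8914069 for the gene, minus strand) ranked 12506 pooled and 12949 in replicate 2. Replicate 1 had no region within 200 bp of that summit, and its highest promoter candidate, near the other Pgi TSS, ranked 20347. The highest region near Pgi, at rank 5250, lay 12 bp from the start of the neighbouring gene lin. Pfk encodes phosphofructokinase, which makes fructose-1,6-bisphosphate. Its promoter candidate (chr2R:10109740-10117457, plus strand) ranked 12750 pooled and 16745 in replicate 2, and replicate 1 had none. The highest region near Pfk, at rank 2989, was 68 bp upstream of dmpd, past the 3′ end of Pfk. In both of these genes the strongest nearby region therefore lay closer to the start of a neighbour.

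Ald1 encodes aldolase, which cleaves fructose-1,6-bisphosphate, and lies at chr3R:26254069-26261591 (minus strand) with 5 TSS positions and 10 transcripts. Its highest pooled candidate ranked 3568 and lay 258 bp downstream of a TSS, just past the 250-bp limit. It ranked 3486 in replicate 1 and 3382 in replicate 2. Tpi encodes triose phosphate isomerase and lies at chr3R:30132981-30134599 (minus strand). Its highest pooled candidate ranked 9043, 141 bp downstream of a TSS. It ranked 14369 in replicate 1 within 250 bp of a TSS, and replicate 2 had no candidate in the Tpi gene or its 2 kb flanks.

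The peaks of Gapdh2, Eno and Pgk were 269, 142 and 123 bp wide. The median was 336 bp in the reproducible list, where 23.1% of intervals were narrower than that, and 245.5 bp among the 100 peaks with the highest signal values. All pooled candidates at the 10 genes outside the reproducible list were also exactly 336 bp wide. The peak caller is not known, so 336 bp may be a set width rather than a measured one. The Gapdh2 peak, at rank 15, was thus wider than the median of the highest-ranked peaks. A width of at most 142 bp was found in 7.92% of intervals. The 1357 promoter summits lay a median of 43 bp upstream of the nearest TSS of any gene (a position of -43). Of these, 10.3% lay at least as far upstream as that of Gapdh2, 6.85% as that of Eno and 1.4% as that of Pgk.

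**Figure D4:**
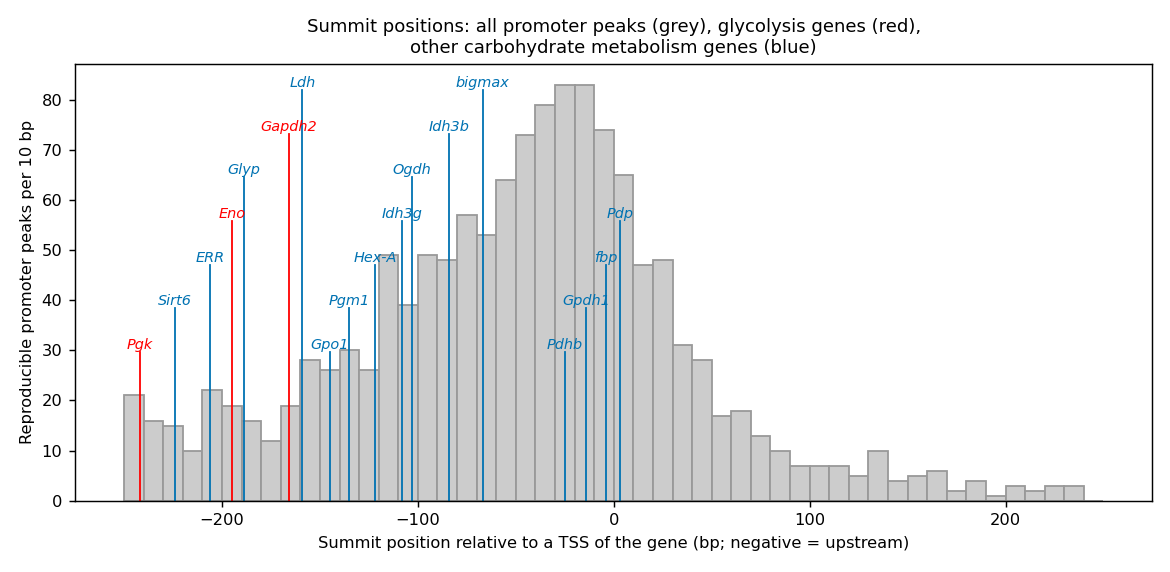
Position relative to the nearest TSS of any gene (bp, negative is upstream) of the reproducible promoter summits, counted in bins of 10 bp (grey). Lines, whose height has no meaning, give the position relative to a TSS of the named gene for glycolysis genes (red) and other carbohydrate metabolism genes with a peak (blue). The 2 measures differ for ERR (-206 bp, but 20 bp from Atg18a) and Sirt6 (-224 bp, but -50 bp from pont). Gapdh2, Eno and Pgk lie at -166, -195 and -242 bp, in the sparse upstream tail.

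Of 70 other genes of carbohydrate metabolism and its control, 15 had a reproducible summit within 250 bp of a TSS, or 21.4%. The share was 9.43% of all genes, 11.6% of protein-coding genes and 19.4% of protein-coding genes with at least 2 TSS positions. The 21.4% is close to the last of these shares, but that comparison is not a like one. Of the 15 genes, fbp, Pgm1, Glyp, Idh3g, bigmax and Sirt6 have only 1 TSS position. In the group of isoenzymes and paralogs of glycolysis, 1 of 13 genes had one, Hex-A, whose hexokinase product phosphorylates glucose. Of connected enzymes and carriers, 8 of 28 had one. They were Ldh, which reduces pyruvate to lactate, Gpdh1 and Gpo1 of the glycerol-3-phosphate shuttle, Pdhb and Pdp of the pyruvate dehydrogenase step, fbp of gluconeogenesis, and Pgm1 and Glyp of glycogen turnover. Of tricarboxylic acid cycle genes, 3 of 19 had one (Idh3g, Idh3b and Ogdh), and of regulators of glycolytic genes 3 of 10 (ERR, bigmax and Sirt6). The ERR summit lay nearer to the start of Atg18a, and the Sirt6 summit nearer to that of pont. The summits of Idh3g, Pdhb and bigmax were nearest to their own starts. They were also within 250 bp of a start of CG4743, alpha-Man-Ib and Hmu, respectively.

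Of these, Idh3g ranked highest at 171, with a signal value of 294.2, ahead of Hex-A at 593. Idh3g was the only one above Eno and Pgk, and none came near Gapdh2 at 15. Hex-A ranked 863 in replicate 1 and 468 in replicate 2. Ldh ranked 707 pooled, 2333 in replicate 1 and 382 in replicate 2. The replicates disagreed more for Gpo1, at 10448 and 823, and Sirt6 and Pgm1 each lacked a candidate within 250 bp in 1 replicate.

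**Figure D5:**
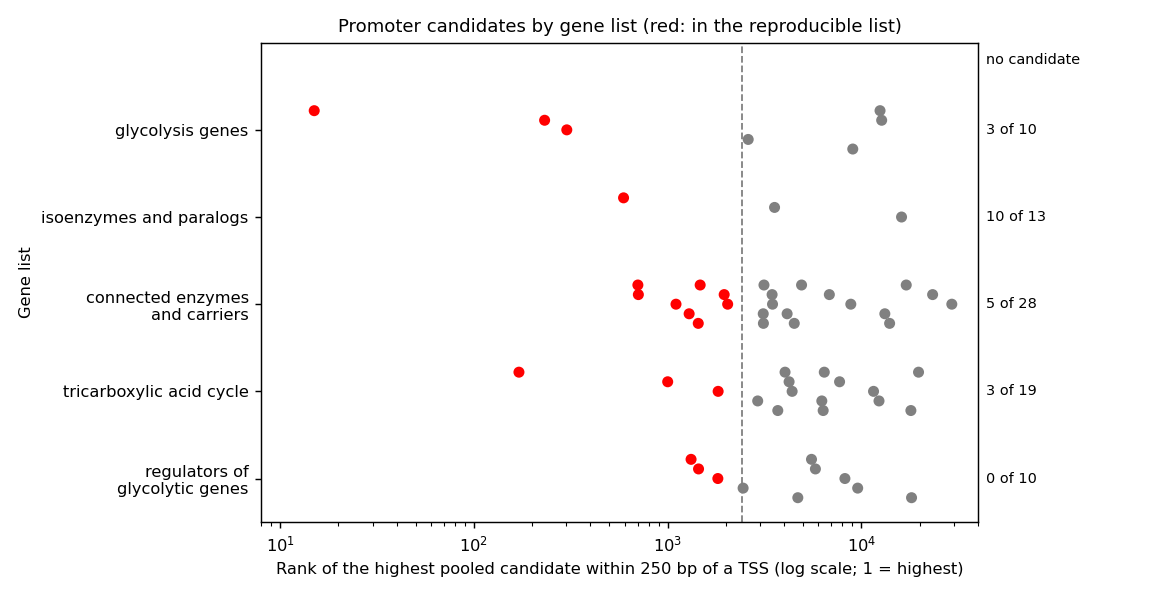
Rank (log scale, 1 is the highest) of the highest pooled candidate within 250 bp of a TSS for each gene in 5 lists; red marks genes in the reproducible list, the dashed line is rank 2413, and the text at the right gives the number of genes with no pooled candidate. Gapdh2 at rank 15 is the leftmost point of all lists, followed by Idh3g at 171.

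The windows at Hex-A and Ldh are shown next because hexokinase takes glucose into the pathway and lactate dehydrogenase uses its product, pyruvate. That of Hex-A comes from chrX:9585453-9585653 on the plus strand, with its summit 122 bp upstream of the TSS, and that of Ldh from chr3L:6262753-6262953 on the minus strand, with its summit 159 bp upstream, and with the same use of capitals.
Hex-A: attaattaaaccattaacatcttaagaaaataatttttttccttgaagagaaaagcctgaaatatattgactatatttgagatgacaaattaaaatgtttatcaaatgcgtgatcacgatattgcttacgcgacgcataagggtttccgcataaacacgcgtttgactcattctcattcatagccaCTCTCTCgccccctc
Ldh: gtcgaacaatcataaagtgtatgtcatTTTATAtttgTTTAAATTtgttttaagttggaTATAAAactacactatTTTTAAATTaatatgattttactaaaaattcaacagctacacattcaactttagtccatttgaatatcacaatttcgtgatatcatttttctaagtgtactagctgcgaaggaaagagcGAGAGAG
Ldh held TATAAA at 2 places and the AT-rich words ATTTAAAA and AATTTAAA, and both windows held GAGAG at 2 overlapping places, the only motif matched in Hex-A. The Ldh window had a GC content of 27.4%, below that of Gapdh2, and the Hex-A window 34.8%. The windows at all 5 genes with a printed sequence thus had a GC content under the reproducible median of 40.3%. That of Pyk, at 39.8%, was barely under it, and 47.7% of the other reproducible peaks were as low or lower.

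The promoter and factor motifs were searched in 23697 promoter windows of 250 bases before to 50 after a TSS, on both strands, and the glycolysis genes had 28 such windows, some of which overlap. The DNA replication-related element TATCGAT was in 13.9% of all promoters and in 10.9% of the other reproducible peaks, against 2.92% of low-ranked candidates. It was in none of the 4 reproducible peaks described for Gapdh2, Eno, Pgk and Pyk, and in the promoters of 1 glycolysis gene, Gapdh1, which had no peak. The Gapdh1 matches were at -234 and -226 from its first TSS, nearer to the start of the neighbouring gene PolZ1. The Motif 1 core GGTCACAC was likewise in the Gapdh1 promoter only, and in 5.63% of all promoters. The ERR half-site AAGGTCA was in 5 of 28 glycolysis windows, or 17.9%, at Tpi, Pgk, Pglym78 and Ald1, against 2.1% of all promoters. It was in none of the peak windows of the 4 genes, and in 1.12% of the other reproducible peaks, against 1.85% of low-ranked candidates. CAGCTG was in 10 of 28 windows, or 35.7%, against 16.5%, and TATAAA in 28.6% against 41.4%. The initiator TCAGT was in 64.3% against 51.2%, GAGAG in 35.7% against 32.4%, ACGTG in 17.9% against 23.8%, and CACGTG, which contains ACGTG, in 0 of 28 against 4.09%. Of the 10 words, ATCGATAG, TATCGATA, GGTCACAC and AACAGCTG contain or equal motifs above. The others were CAACACTG and the AT-rich AAATAAAT, AATAAATA, AAAATAAA, ATTTAAAA and AATTTAAA, several of which overlap each other. They were chosen because their share in reproducible windows most exceeded that in low-ranked ones. For AACAGCTG the shares were 5.77% and 1.82%, for ATTTAAAA 7.31% and 3.31%, and for AATTTAAA 6.81% and 3.16%. A match is only a match of letters, and no factor's binding was measured here other than that of BuGZ.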

How the data were processed

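Chromatin from 2 replicates of embryos was sonicated to 200 to 800 bp, per the labels. The authors deposited narrowPeak lists on dm6: candidates for each replicate, pooled candidates, and a reproducible list cut at an unnamed level of the irreproducible discovery rate, which scores how well replicates rank the same regions. The aligner is not given in the sources used here, nor is the peak caller or that level. The signal value is a score deposited by the authors with no stated scale and ranked regions within a list. Deposited values of −log10 q went unused. The deposited summit offset, another field of the lists, gave each summit position.

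Genes and TSS positions came from Ensembl release 115 on 7 chromosomes (23694 TSS positions, 13968 protein-coding genes of 18277). Replicate regions were matched to the highest-ranked region within 200 bp. GC content and motifs were taken within 100 bp of a summit, in the 2407 reproducible windows other than the 6 at Gapdh2 (promoter), Eno and Pgk (inside the gene), Pyk, Hex-A and Ldh, and in 14890 low-ranked pooled candidates that overlap no reproducible peak. The 10 words of 8 bases were those with the largest difference in share between reproducible and low-ranked windows, and so were chosen from these data. Python 3.11.15, pandas 2.3.3, numpy 2.4.6 and matplotlib 3.10.9 were used. Counting was tested on simulated data.

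The members, gene lists and motifs were chosen with earlier results of these data known. All 10 genes were named, and of the other lists every gene with a reproducible promoter summit, with the peaks next to Gapdh2 by signal. Candidates outside the reproducible list were given for each gene with their ranks. No test was run, because 1 group of 2 replicates allows none; counts stand beside the share of all genes. Alternatives were other windows, overlap of the interval, the stronger 50% of the list, each replicate alone, protein-coding genes only and, added after seeing the data, genes with at least 2 TSS positions.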

Additional observations from a re-analysis of the deposited data

How the results depend on the processing

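No paired analysis was possible because there is 1 group and no contrast. The 3 glycolysis genes with a reproducible promoter summit became 0 with a window of 100 bp, where 5.93% of all genes had one, and 0 with interval overlap, where 7.26% did. With windows of 500 and 1000 bp they were 3 and 4, where 11.6% and 14.0% of all genes had one. With the stronger 50% of the list they were 3, where 4.88% of all genes had one. Replicate 1 alone gave 4 and replicate 2 alone gave 3, where the shares were 9.08% and 9.29%. The 15 of 70 other carbohydrate genes became 6 with a window of 100 bp, 23 with 1000 bp and 6 with the stronger 50%. The shares of all genes there were 5.93%, 14.0% and 4.88%. Replicate 1 alone gave 17 of these genes and replicate 2 alone 13, where 9.08% and 9.29% of all genes had one. The 7 genes with a pooled promoter candidate became 4 with a window of 100 bp, where 27.0% of all genes had one. In replicates 1 and 2 alone they were 8 and 9, where 36.3% and 40.1% did. The gene body count of 4 was 3 to 6 under every alternative run. The share of all genes ran from 6.53% with the gene body only (3 glycolysis genes) to 32.3% with 5 kb added (4 glycolysis genes). It was 22.3% where the count was 6. With 1 replicate left out, the place of the Gapdh2 region from the top ranged from 0.0233% to 0.117%, and it was 0.12% among promoter candidates alone. For the highest Gapdh1 region it ranged from 9.34% to 64.5%. The background share rose from 9.43% to 19.4% among protein-coding genes with at least 2 TSS positions, the alternative chosen after seeing the data. The lists give no read depth and end at 30000 regions, so a gene without a candidate may only have ranked lower.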
